A study of Mus musculus with 6 samples.

Results

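Guanylate-binding proteins (GBPs) and immunity-related GTPases (IRGs) were followed in mouse skin through 7 genes, namely Gbp2, Gbp3, Gbp8, Iigp1, Igtp, Irgm1 and Irgm2. They were taken as the probe sets whose platform annotation names 1 of these genes and no other, which gave 9 probe sets of the 20380 that name a single gene, and 7 genes of 12393. The 7 genes were picked with their signals on these arrays in view, above all their high signal after TSLP, so every TSLP value is given as a description without a test. All samples were skin of C57BL/6 mice that carried a subcutaneous pump for 7 days. Skin at the pump outlet had received TSLP (1 array), IL-13 (1 array), TGF-beta (2 arrays, from mouse 1 and mouse 2) or PBS (1 array, PBS local), and 1 further array held abdominal skin far from the outlet of a PBS pump (PBS distal). The labels used here give neither doses nor the age and sex of the mice, and every group but TGF-beta rests on a single array.

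Both families are GTP-hydrolysing proteins that cells make after exposure to interferons, above all IFN-gamma. GBPs are large GTPases that assemble on the membranes of intracellular bacteria and of parasite vacuoles and help to open them to immune sensing. Among the IRGs, effectors such as Iigp1 load onto the vacuole of Toxoplasma gondii, while the regulators Igtp, Irgm1 and Irgm2 sit on the cell's own membranes and keep the effectors inactive there. Promoters of interferon-induced genes often carry a gamma-activated sequence (GAS) or an interferon-stimulated response element (ISRE), and interferon regulatory factors bind the ISRE. TSLP is an epithelial cytokine whose receptor signals mainly through STAT5, IL-13 signals mainly through STAT6, and TGF-beta acts through SMAD proteins.

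The promoter sequence of the members is shown first so that relatives within the families can be compared. RefSeq windows of the build GRCm38.p6 were used for 5 of the 7 members, Gbp2, Gbp3, Igtp, Irgm1 and Irgm2, and for the related IRG gene Tgtp1. Each line gives the 150 bases just before the gene's start, 5′ to 3′ on the gene's strand, and capitals mark every match to the ISRE pattern (GAAA, then any 2 bases, then GAAA, which reads as TTTC, any 2 bases and TTTC on the other strand) or to the GAS pattern TTCNNNGAA (the same letters on the other strand). Gbp2 spans chr3:142620513-142620662 (plus strand), Gbp3 chr3:142559894-142560043 (plus strand), Igtp chr11:58199406-58199555 (plus strand), Irgm1 chr11:48871421-48871570 (minus strand), Irgm2 chr11:58214827-58214976 (plus strand) and Tgtp1 chr11:48992247-48992396 (minus strand).
Gbp2: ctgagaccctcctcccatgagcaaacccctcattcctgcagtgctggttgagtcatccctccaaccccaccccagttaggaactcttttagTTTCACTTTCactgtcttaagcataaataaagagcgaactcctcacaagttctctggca
Gbp3: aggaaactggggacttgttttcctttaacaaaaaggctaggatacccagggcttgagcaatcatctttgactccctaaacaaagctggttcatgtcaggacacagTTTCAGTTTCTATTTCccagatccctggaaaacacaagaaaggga
Igtp: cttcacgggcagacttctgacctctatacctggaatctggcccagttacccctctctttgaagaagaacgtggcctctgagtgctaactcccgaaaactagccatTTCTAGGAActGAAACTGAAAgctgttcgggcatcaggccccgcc
Irgm1: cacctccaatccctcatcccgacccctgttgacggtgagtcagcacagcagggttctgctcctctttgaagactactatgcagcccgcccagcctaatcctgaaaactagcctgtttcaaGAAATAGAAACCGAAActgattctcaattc
Irgm2: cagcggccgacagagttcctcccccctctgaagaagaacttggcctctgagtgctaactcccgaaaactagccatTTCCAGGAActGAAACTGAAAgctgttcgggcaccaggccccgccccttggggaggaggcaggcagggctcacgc
Tgtp1: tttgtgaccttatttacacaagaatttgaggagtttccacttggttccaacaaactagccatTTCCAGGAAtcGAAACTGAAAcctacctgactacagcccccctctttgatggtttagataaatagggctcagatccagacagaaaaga

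All 5 members with a window held the ISRE pattern, which stood in 3.44% of the 32851 RefSeq windows of 300 bases. In Gbp2 it lay 59 to 50 bases before the start, in the orientation that begins with TTTC. In Gbp3 a pair of overlapping matches in the same orientation ran from 45 to 30 bases before the start, and a second RefSeq window of Gbp3 held none. In Irgm1 a pair of overlapping matches ran from 30 to 15 bases before the start, in the orientation that begins with GAAA.

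Igtp and Irgm2 also held the GAS pattern, found in 8.3% of all windows, at 45 to 37 bases before the start of Igtp and at 75 to 67 bases before that of Irgm2. In both genes the ISRE match followed the GAS match after a gap of 2 bases. That joint arrangement, the GAS pattern, any 2 bases and then the ISRE pattern, was defined after the sequences were seen. It stood in 5 of the 32851 windows (0.0152%), those of Igtp, Irgm2, Tgtp1, Tgtp2 and Gm12185. The longest identical run between the printed stretches of Igtp and Irgm2 was 38 bases, against 14 bases between Igtp and Tgtp1, 11 bases between Igtp and Irgm1, and 7 bases between Gbp2 and Gbp3. A match describes these letters and not a bound site.

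**Figure D1:**
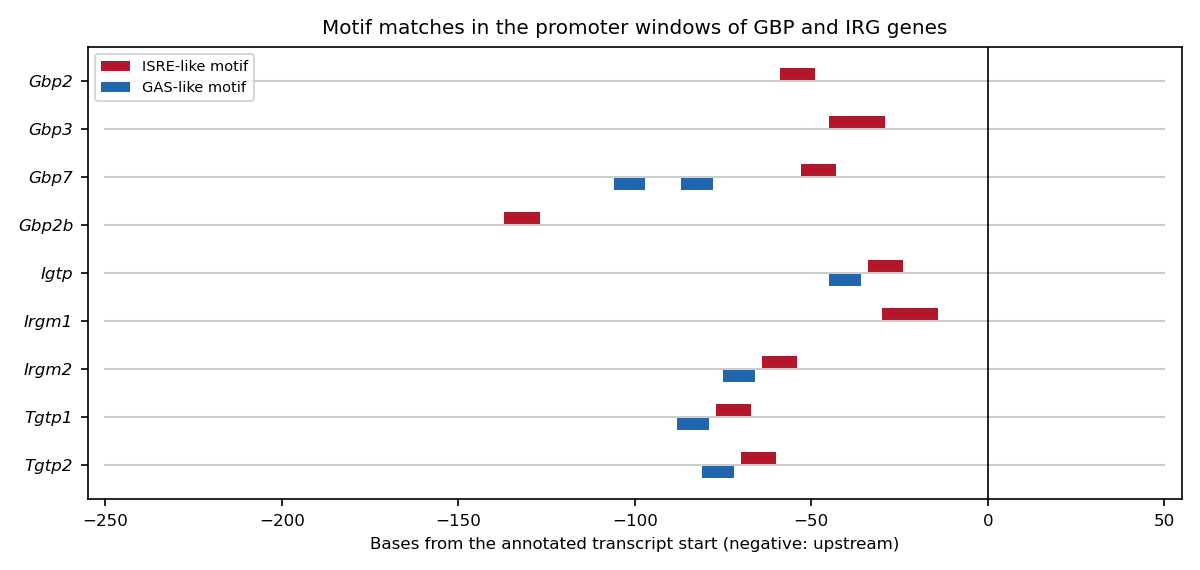
Positions of the ISRE and GAS pattern matches in bases from the gene start (horizontal axis) in the RefSeq windows of 5 members and of the related genes Gbp7, Gbp2b, Tgtp1 and Tgtp2 (rows), with ISRE matches in red and GAS matches in blue. All matches of the 5 members lie within 75 bases before the start, and Igtp and Irgm2 carry a GAS match next to the ISRE match.

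By chromosome, 6 of the 7 members were grouped with relatives in the RefSeq gene order, and Iigp1 was left out of that grouping. Gbp2 and Gbp3 lie on chromosome 3 with Gbp5, Gbp7 and Gbp2b, and Gbp8 lies on chromosome 5 with Gbp9, Gbp4, Gbp10, Gbp6 and Gbp11. Igtp, Irgm1 and Irgm2 lie on chromosome 11 with Tgtp1, Tgtp2 and Ifi47. There the printed stretches of Irgm1 and Tgtp1 lie far from those of Igtp and Irgm2. Near-identical relatives can share probes, so the signal of a GBP or IRG probe set may hold some RNA of a related gene.

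The arrays were alike in scale and differed in tissue content. Array medians ran from 160 to 171 signal units. The 6 measured keratinocyte markers passed the limit for dim genes (165 signal units, the median of all values), with Krt14 at 5886 to 8744 units, so the tissue carried the markers of skin, and skeletal muscle markers were abundant too. TGF-beta mouse 2 stood apart in hair follicle genes, with a summed signal of 34836 units against at most 2132 on any other array. Of the T and NK cell markers, 6 of 15 reached the limit for dim genes on any array and 0 of 15 lay under 27.4 units on all arrays. Their summed signal was 2507 units after TSLP, 1735 after IL-13, 1662 and 2012 in the TGF-beta mice, 1173 in PBS distal and 1464 in PBS local skin. In whole skin, more cells of a type and more RNA per cell cannot be told apart.

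After TSLP the 7 GTPase genes stood at their highest signal of the 6 arrays. Of the 7, 6 were at least 2-fold above PBS local skin, which was the size rule used throughout (a difference of at least 1 in log2(signal + 27.4)), and Irgm1 was nearer to it. Over all 7614 genes that reached the limit for dim genes on either array, 0.998% were that much higher and 0.447% that much lower. The median of the members was 1.72 higher on the log2 scale, with all genes at -0.01. This contrast led to the choice of the members, so nothing is read from the excess. Each group was 1 array, so no error can be given.

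Gbp2, a GBP that gathers on parasite vacuoles and on bacteria in mouse cells, had 3063 signal units after TSLP. It had 880 units after IL-13, 843 and 825 units in the TGF-beta mice, 710 units in PBS distal and 908 units in PBS local skin. TSLP skin stood far above the other 5 arrays, which lay close together. The difference from PBS local skin was 1.72 on the log2 scale, or 3.30-fold. The second probe set of Gbp2 gave 2480 units after TSLP, 828 after IL-13, 841 and 738 in the TGF-beta mice, 624 in PBS distal and 724 in PBS local skin, a TSLP difference of 1.74.

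Gbp3, its neighbour on chromosome 3, had 1452 units after TSLP, 804 after IL-13, 770 and 648 in the TGF-beta mice, 345 in PBS distal and 520 in PBS local skin. Its TSLP signal was 1.43 above PBS local skin on the log2 scale, or 2.70-fold. Unlike Gbp2, it spread widely over the other 5 arrays, with every cytokine array above both PBS arrays and PBS distal lowest.

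Gbp8, on chromosome 5, had 632 units after TSLP, 116 after IL-13, 194 and 153 in the TGF-beta mice, 73.2 in PBS distal and 113 in PBS local skin. Only TSLP skin and TGF-beta mouse 1 reached the limit for dim genes. It entered the TSLP comparison through its TSLP signal alone, and a dim gene had to be high there to enter, so its difference of 2.23 from PBS local skin on the log2 scale (4.70-fold) rests on a dim PBS value.

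Iigp1, the IRG effector that coats the Toxoplasma vacuole in mouse cells, had 4346 units after TSLP, 1648 after IL-13, 1497 and 1340 in the TGF-beta mice, 1480 in PBS distal and 1258 in PBS local skin. The other 5 arrays were close to each other, with PBS local skin lowest. The TSLP difference from PBS local skin was 1.77 on the log2 scale, or 3.40-fold. A second probe set of Iigp1 gave 1.73 there, with 2340 units after TSLP and 674 to 929 units on the other 5 arrays. On that probe set TGF-beta mouse 2 was lowest, at 674 units, and PBS local skin had 688 units.

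The regulator Igtp, which resides on the endoplasmic reticulum, had 3017 units after TSLP, 1029 after IL-13, 896 and 675 in the TGF-beta mice, 746 in PBS distal and 865 in PBS local skin. Its difference of 1.77 between TSLP and PBS local skin on the log2 scale (3.41-fold) was close to that of Iigp1. Among the other arrays IL-13 skin was highest and TGF-beta mouse 2 lowest.

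Irgm2, a regulator found at the Golgi apparatus, had 1550 units after TSLP, 734 after IL-13, 654 and 511 in the TGF-beta mice, 575 in PBS distal and 519 in PBS local skin. The TSLP difference from PBS local skin was 1.53 on the log2 scale, or 2.89-fold. The PBS arrays lay between the TGF-beta mice.

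Irgm1, a regulator needed by mice to control mycobacteria, had 929 units after TSLP, 655 after IL-13, 483 and 456 in the TGF-beta mice, 521 in PBS distal and 554 in PBS local skin. It had the smallest TSLP difference of the 7 members, 0.72 on the log2 scale or 1.65-fold, and was the member that missed the size rule. IL-13 skin ranked next after TSLP skin, and the TGF-beta mice were lowest.

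**Figure D2:**
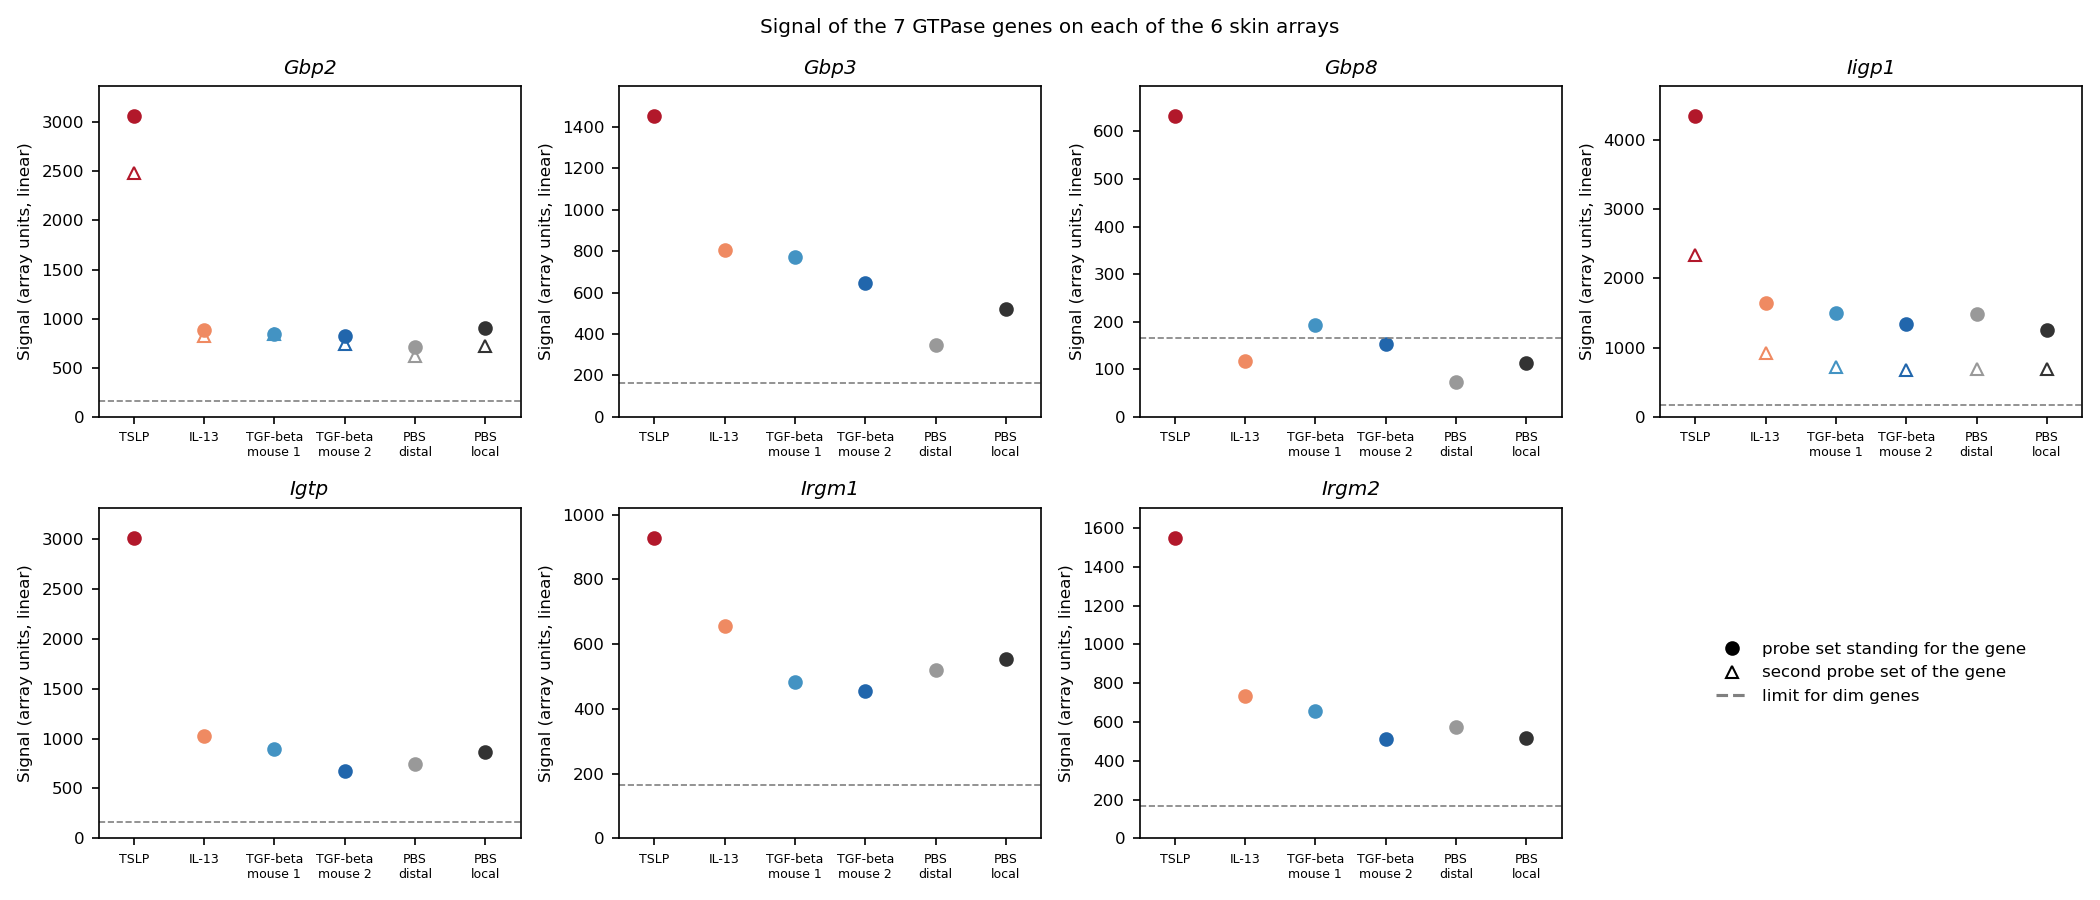
Linear signal (vertical axis, array units) of each of the 7 genes on the 6 arrays (horizontal axis), with filled circles for the probe set that stands for the gene, open triangles for a second probe set and a dashed line at the limit for dim genes. TSLP skin is the highest array in each panel, from 632 units for Gbp8 to 4346 units for Iigp1.

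Ranked by the TSLP difference from PBS local skin among 7614 genes, Gbp8 stood at place 8, Igtp at 20, Iigp1 at 21, Gbp2 at 23, Irgm2 at 32, Gbp3 at 36 and Irgm1 at 157. Irgm1 ranked well below the other IRG regulators Igtp and Irgm2, which lie on the same chromosome. TSLP was also the highest of the 6 arrays for 18.9% of the 7945 genes that reached the limit for dim genes on any array. A gap of at least 2-fold between TSLP skin and the next highest array was found for 11 of these genes (0.138%), of which 5 were members. The gap was 1.72 for Gbp2, 1.58 for Gbp8, 1.53 for Igtp, 1.38 for Iigp1 and 1.05 for Irgm2 on the log2 scale, and it was 0.83 for Gbp3 and 0.49 for Irgm1. The other 6 genes were Cxcl9, Ubd, Gbp6, Slamf8, Zdhhc12 and Ccl5, of which Cxcl9, a chemokine for activated T cells, had the widest gap, at 2.73.

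**Figure D3:**
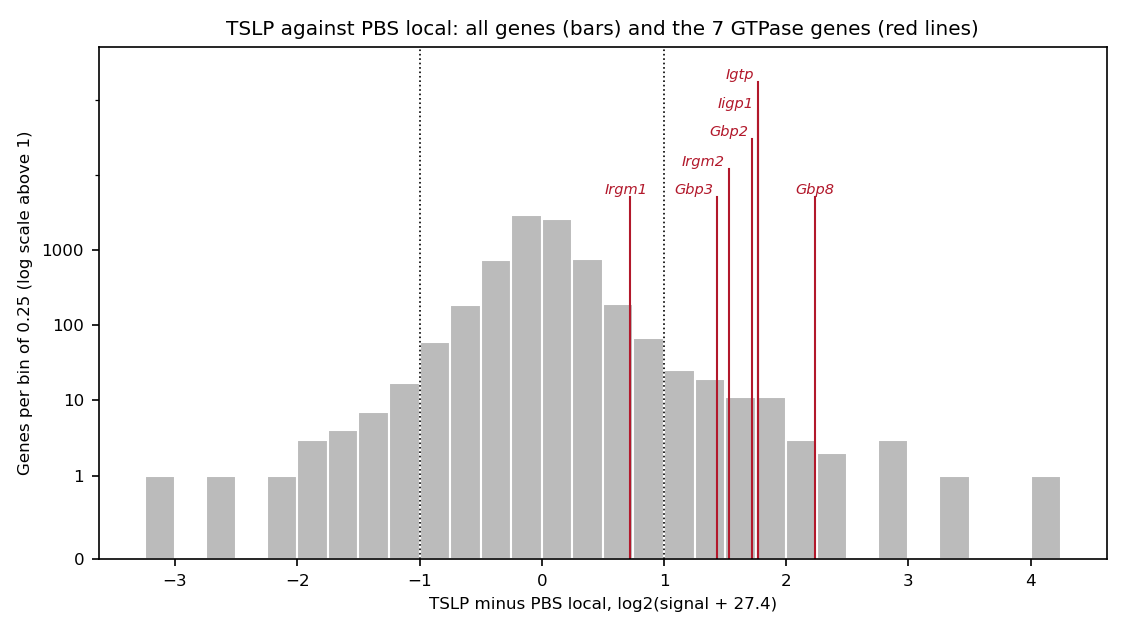
Histogram of the difference between TSLP and PBS local skin in log2(signal + 27.4) over 7614 genes (horizontal axis, bins of 0.25, number of genes on a log scale above 1), with red lines for the 7 members and dotted lines at the size rule. The members run from 0.72 for Irgm1 to 2.23 for Gbp8, while the median of all genes is -0.01.

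Against IL-13, 5 of 7 members were at least 2-fold higher in TSLP skin, beside 0.82% of 7558 genes higher and 0.556% lower. Gbp8 was 2.20 higher after TSLP than after IL-13 on the log2 scale, Gbp2 1.77, Igtp 1.53, Iigp1 1.38 and Irgm2 1.05, while Gbp3 was at 0.83 and Irgm1 at 0.49. Against TGF-beta, 5 of 7 members were at least 2-fold higher in TSLP skin than in both mice, beside 0.515% of 7763 genes higher and 0.167% lower.

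Igtp was 1.72 higher in TSLP skin than in TGF-beta mouse 1 and 2.12 higher than in mouse 2 on the log2 scale. Gbp2 was 1.83 and 1.86 higher in TSLP skin than in mouse 1 and mouse 2, a close match between the mice on this probe set. The second probe set of Gbp2 lay further apart, with 841 units in mouse 1 and 738 in mouse 2. For Gbp3 the log2 differences were 0.89 and 1.13, so that its place past the size rule depended on the mouse. For Irgm1 they were 0.91 and 0.98. These comparisons share the TSLP array that led to the choice of the members and are descriptions only.

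After IL-13, of the 6 members that reached the limit for dim genes in this pair of arrays, 0 were at least 2-fold higher or lower, beside 1.12% of 7562 genes higher and 0.41% lower. At that background nothing is read from the count of 0. Gbp3 was 0.60 above PBS local skin on the log2 scale, Irgm2 0.48, Iigp1 0.38, Igtp 0.24 and Irgm1 0.23. Gbp2 was at -0.04, and its second probe set at 0.19. Gbp8 was below the limit for dim genes on both arrays and was at 0.04. The median of the 6 was 0.31, with all genes at -0.07. IL-13 skin was the second highest array for 5 members (Gbp3, Iigp1, Igtp, Irgm1 and Irgm2). The share of all genes with that rank was not counted, so nothing is read from it.

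TGF-beta is the group in which spread between mice can be measured, and no member passed the test there. In limma (all 6 arrays fitted, Benjamini-Hochberg adjusted p under 0.05), 0 of 7 members and 0 of 7741 genes (0%) differed between TGF-beta and PBS local skin. At an unadjusted limma p under 0.05 there were 355 genes, of which 0 were members. The spread came from the 2 mice alone, with 1 residual degree of freedom. To this limma added 3.13 prior degrees of freedom, borrowed from the spread over all genes. The p-values also rest on the assumption that the single PBS local array varies like the 2 mice.

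By size, 0 of 7 members were at least 2-fold different in both TGF-beta mice, beside 0.181% of genes higher and 0.155% lower. Gbp3 was higher in both mice, by 0.54 and 0.30 on the log2 scale (mean 0.42 ± 0.18, SE, limma adjusted p = 0.864). Gbp8 stood at 0.65 and 0.37 above PBS local skin (mean 0.51 ± 0.32, SE, limma adjusted p = 0.864). Gbp2 was at -0.10 and -0.13, and its second probe set at 0.21 and 0.03, so its direction depends on the probe set.

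The IRGs gave no common direction under TGF-beta. Iigp1 was at 0.25 in mouse 1 and 0.09 in mouse 2 on the log2 scale, and Irgm2 at 0.32 and -0.02. The second probe set of Iigp1 was at 0.06 and -0.03. Igtp was at 0.05 and -0.35, and Irgm1 at -0.19 and -0.26, the one IRG below PBS local skin in both mice (mean -0.23 ± 0.15, SE, limma adjusted p = 0.864). The SD between the mice ran from 0.02 for Gbp2 to 0.28 for Igtp on the log2 scale.

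**Figure D4:**
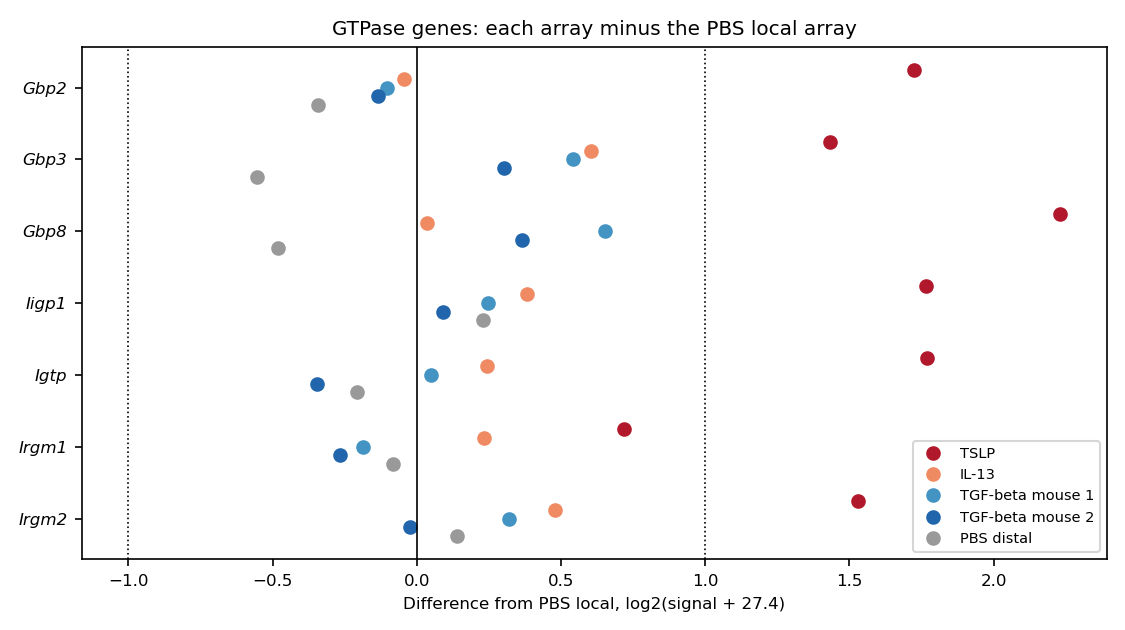
Difference from PBS local skin in log2(signal + 27.4) for each member after TSLP, after IL-13, in each TGF-beta mouse and in PBS distal skin (points), with dotted lines at the size rule. TSLP values lie between 0.72 and 2.23, while the other arrays lie between -0.55 and 0.65.

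IL-13 against TGF-beta is a contrast free of both TSLP and PBS local skin, and it allows a test. No member passed it in limma, where 0 of 7 members and 0 of 7674 genes (0%) had an adjusted p under 0.05, and 179 genes had an unadjusted p under 0.05. Irgm1 was the 1 member among these, with IL-13 skin 0.42 above mouse 1 and 0.50 above mouse 2 on the log2 scale (mean 0.46 ± 0.15, SE, limma adjusted p = 1.00). The 4 IRGs were higher in IL-13 skin than in both mice, and none of them passed the test. The means were 0.21 for Iigp1, 0.39 for Igtp, 0.46 for Irgm1 and 0.33 for Irgm2. How many of all genes were higher than in both mice was not counted, so nothing is read from that direction.

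The GBPs were less uniform in that contrast. Gbp2 was 0.06 and 0.09 higher in IL-13 skin than in mouse 1 and mouse 2, and Gbp3 0.06 and 0.30 higher. On the second probe set of Gbp2, IL-13 skin (828 units) lay between mouse 1 (841 units) and mouse 2 (738 units). The direction for Gbp2 therefore depends on the probe set. Gbp8 was the member lower in IL-13 skin than in both TGF-beta mice, at -0.62 and -0.33 (mean -0.47 ± 0.33, SE, limma adjusted p = 1.00), at signals near the limit for dim genes. By size, 0 of 7 members were at least 2-fold different, beside 0.43% of genes higher in IL-13 skin and 0.0261% lower.

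In PBS distal skin, 0 of 6 members that reached the limit for dim genes were at least 2-fold higher or lower than in PBS local skin, beside 0.788% of 7617 genes higher and 3.51% lower. The GBPs were all lower there on the log2 scale, Gbp2 at -0.34 (second probe set -0.21), Gbp3 at -0.55 and the dim Gbp8 at -0.48. The IRGs went both ways, with Iigp1 at 0.23 (second probe set 0.02), Irgm2 at 0.14, Irgm1 at -0.08 and Igtp at -0.21. Site and pump outlet differ together between these arrays and cannot be told apart.

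Across the 6 arrays each member followed the mean of the others, with Pearson's r from 0.864 for Gbp3 to 0.978 for Igtp. Those values lean on the TSLP array. Over the other 5 arrays r was 0.860 for Gbp3, 0.687 for Igtp, 0.659 for Irgm2, 0.621 for Gbp2, 0.435 for Iigp1, 0.384 for Gbp8 and 0.267 for Irgm1. The range over these 5 arrays was narrowest for Gbp2, at 0.34 on the log2 scale, and widest for Gbp3, at 1.16. With 5 or 6 arrays that share their group structure, these are descriptions.

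Candidates were 1208 genes outside the members with enough signal and a log2 range of at least 1 over the 6 arrays. The genes most like the members were chosen as the 10 with the highest Pearson's r with the members' mean over those arrays. They were Cxcl9 (r = 0.997), the transcription factor Irf1 (0.987), Parp14 (0.978), the ubiquitin-like modifier Ubd (0.974), Oasl2 (0.971), Uba7, the activating enzyme for ISG15 (0.970), Slamf8 (0.959), Sp110 (0.950), Ifi47, an IRG outside the 7 members (0.950), and Gbp7 (0.948). Irf1, which binds ISRE sequences, had 1360 units after TSLP, 660 after IL-13, 703 and 659 in the TGF-beta mice, 601 in PBS distal and 662 in PBS local skin. It shared with Gbp2 a high TSLP array above 5 arrays lying close together. Its difference of 1.01 between TSLP and PBS local skin was smaller than those of 6 of the 7 members. For all of the 10 genes but Cxcl9, the log2 range over the other 5 arrays was under 1. These genes met the range limit only through the TSLP array, which also led to the choice of the members. The list and its r values are therefore descriptions.

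Of 20 further GBP, IRG and dynamin-like genes listed, 5 had a probe set of their own and 3 reached the limit for dim genes in TSLP or PBS local skin. Of these 3, 2 were at least 2-fold higher after TSLP, beside 0.998% of all genes, and Gbp6 entered through its TSLP signal alone. Gbp7 had 2407 units after TSLP, 1298 after IL-13, 1502 and 1067 in the TGF-beta mice, 901 in PBS distal and 975 in PBS local skin, a TSLP difference of 1.28. Gbp6 had 416 units after TSLP and 97.2 to 152 units on the other 5 arrays, a TSLP difference of 1.83. Mx1, a dynamin-like GTPase induced mainly by type I interferon, had 480 units after TSLP, 405 after IL-13, 270 and 230 in the TGF-beta mice, 367 in PBS distal and 340 in PBS local skin, a TSLP difference of 0.47. Ifi47, an IRG that was not on that list and was found through its likeness to the members, had 1953 units after TSLP and 853 units in PBS local skin, a TSLP difference of 1.17. Gbp2b was below the limit for dim genes on every array, with 153 units after TSLP and 11.5 to 22.2 units elsewhere.

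The interferon pathway around the GTPases was described by lists. For the ligands, 2 of 9 measured genes reached the limit for dim genes in TSLP or PBS local skin, and 0 of the 2 were at least 2-fold different. Ifng, which encodes IFN-gamma, was dim on every array, with 30.2 units after TSLP, 7.34 after IL-13, 18 and 17.2 in the TGF-beta mice, 5.54 in PBS distal and 9.30 in PBS local skin, so its order cannot be read. For the receptors and kinases, 0 of 7 were past the size rule, with Ifngr1 at 0.08 and Ifngr2 at 0.32 (TSLP minus PBS local, log2). Over all genes 0.998% were higher and 0.447% lower in this comparison, so nothing is read from these counts of 0.

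Of the transcription factors and feedback genes, 2 of 11 were at least 2-fold higher after TSLP than in PBS local skin and 0 lower. These were Irf1 (1.01) and Irf7 (1.04), a factor of the type I interferon response, while Irf8 was at 0.49 and Irf9 at 0.27. Socs1, a feedback inhibitor, was below the limit for dim genes and at -0.20. Of the IFN-gamma induced genes outside the families, 5 of 13 were at least 2-fold higher and 0 lower, with a median of 0.65. They were Cxcl9 (3.45), the itaconate-producing enzyme Acod1 (2.14), Ubd (2.09), the chemokine Cxcl10 (1.90) and the checkpoint ligand Cd274 (1.31). Acod1, Ubd and Cd274 reached the limit for dim genes on the TSLP array alone of this pair, so that they could enter only by being high there. The share of all genes at least 2-fold higher was 0.998% in this comparison, and with 1 array each these counts are descriptions. Of the type I interferon genes, 2 of 12 were at least 2-fold higher, Ifit2 (1.27) and Ifit3 (1.04), with a median of 0.56.

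After IL-13 the IFN-gamma induced genes had a median of 0.08 with 2 of 12 at least 2-fold higher than in PBS local skin, Acod1 at 2.47 and Cxcl10 at 1.32. Acod1 had 202 units after TSLP, 262 after IL-13 and 24.7 in PBS local skin, so it did not share the TSLP peak of the GTPases. The type I interferon genes had a median of 0.41 with 1 of 11 at least 2-fold higher, Ifit2 at 1.14. The share of all genes at least 2-fold higher was 1.12% after IL-13. Under TGF-beta the median was -0.08 for the IFN-gamma induced genes and 0.05 for the type I interferon genes. In both mice 0 genes of either list were at least 2-fold different, beside 0.181% of all genes higher and 0.155% lower.

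A further list covered the ATG conjugation of LC3-like proteins, which directs IRGs and GBPs to vacuoles, and the prenylation that anchors some GBPs. Of its 15 measured genes, 14 reached the limit for dim genes in TSLP or PBS local skin. Of the 14, 0 were at least 2-fold different after TSLP, with a median of -0.03. That count stood beside 0.998% of all genes higher and 0.447% lower. At that background nothing is read from a count of 0. Of 4 inflammasome and pyroptosis genes that reached the limit for dim genes, 0 were past the size rule, with a median of 0.42.

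Markers of cytotoxic lymphocytes, a source of IFN-gamma, were in part higher on the TSLP array too. Among T and NK cell markers, 6 reached the limit for dim genes in TSLP or PBS local skin. All 6 were higher after TSLP, and 2 were at least 2-fold higher, beside 0.998% of all genes. These 2 were the granzymes Gzma (1.41) and Gzmb (1.38). The others were Klrd1 at 0.79, Nkg7 and Cd3d at 0.49 and Cd3g at 0.18 on the log2 scale. Gzmb, Nkg7 and Cd3d were below that limit in PBS local skin. Gzma was also higher in the TGF-beta mice than in PBS local skin, by 1.08 and 1.42. Markers below the limit for dim genes on both arrays went both ways. Cd3e, a chain of the T cell receptor complex, had 67.5 units after TSLP and 95.0 units in PBS local skin. Il2rb had 112 units after TSLP and 40.0 units in PBS local skin. The summed macrophage markers had 43016 units after TSLP and 42350 units in PBS local skin, and 0 of 10 were at least 2-fold higher. With 0.998% of all genes that much higher, nothing is read from that count of 0. The summed neutrophil markers had 6588 units after TSLP and 4864 units in PBS local skin. S100a8 (2857 and 2392 units) and S100a9 (2458 and 1329 units) weighed most in these sums. Of the 6 neutrophil markers that reached the limit for dim genes, 4 were higher after TSLP, while Ngp was at -0.50 and Camp at -0.08 on the log2 scale. The part of these cells in the GTPase signals was not tested.

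**Figure D5:**
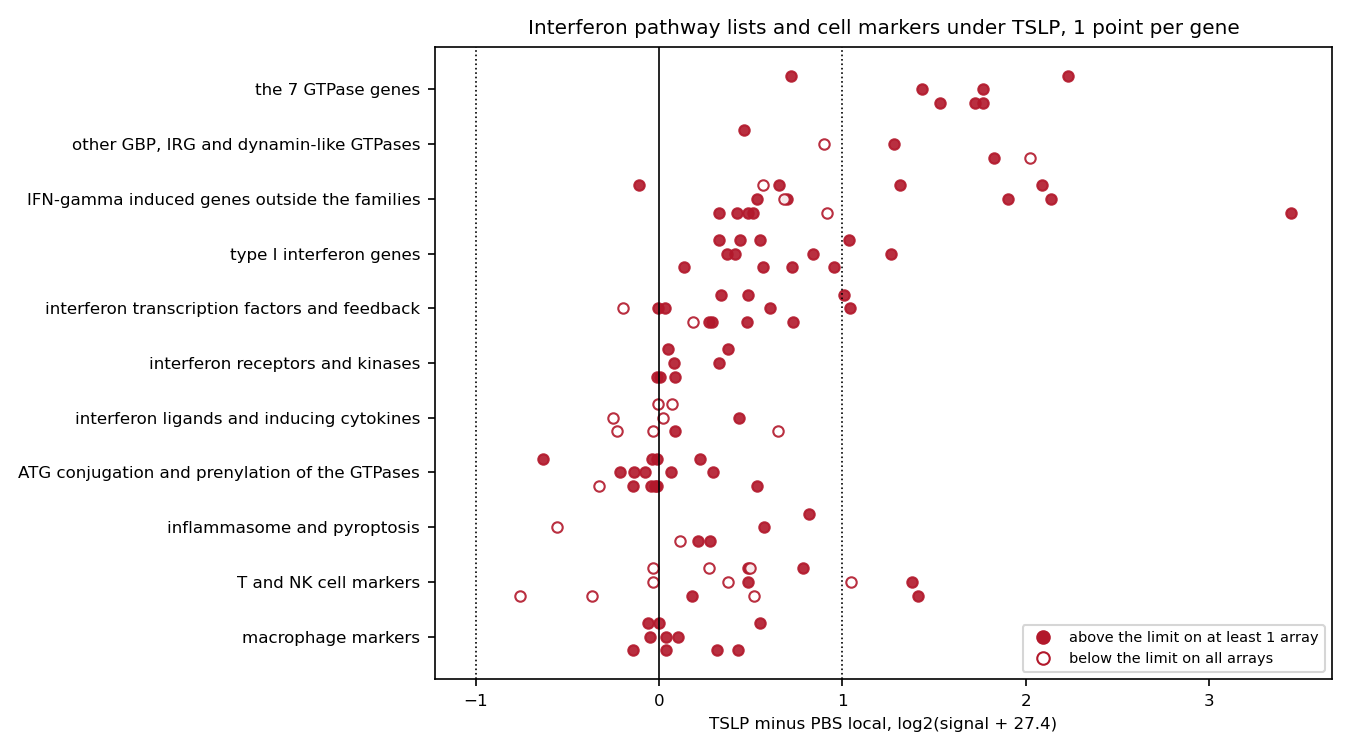
Difference between TSLP and PBS local skin in log2(signal + 27.4) (horizontal axis), 1 point per gene, for the members, the pathway lists, the T and NK cell markers and the macrophage markers (rows), with open circles for genes below the limit for dim genes on all arrays and dotted lines at the size rule. The members have a median of 1.72, the IFN-gamma induced genes 0.65, the type I interferon genes 0.56 and the ATG and prenylation genes -0.03.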

How the data were processed

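Skin RNA was measured on 6 Affymetrix arrays in 5 groups. The authors deposited 1 linear intensity for each probe set on each array, and the submitters' processing notes name MAS5 as the tool (version not given in the sources used here). Arrays already shared a scale (trimmed means of 500.16 to 500.2, leaving out 2% at each end). All per-sample columns were used (0 left out). The annotation gives 1 gene for 20380 of 22690 probe sets, several for 691 and none for 1555, and 64 are AFFX controls. A RefSeq gene table of GRCm38.p6 held the gene numbers of 20351, and promoter windows came from RefSeq on that build.

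Each array was scaled to the common trimmed mean and taken as log2(signal + 27.4), the offset being the 25th percentile of all values. Folds are on that scale, which understates changes of dim genes. The probe set with the highest mean stood for a gene. A gene entered a comparison if 1 compared array reached 165, the median of all values. The size rule was a difference of at least 1 (log2), for TGF-beta in both mice. TGF-beta against PBS local and IL-13 against TGF-beta were tested with limma 3.58.1 (lmFit, eBayes with an intensity trend, Benjamini-Hochberg at 0.05, R 4.3.3) on all 6 arrays. The check of this step on simulated data had a pass condition for the estimated size of a large change only. The changed genes called were counted there, without a pass condition, and those counts are not reported here. How many true changes the test would miss with so few arrays is therefore not given. Other tables were made with Python 3.11.15, NumPy 2.4.6 and pandas 2.3.3. Precision is limited by how few arrays there were. Medians of the members, of the lists and of all genes are over genes past the filter.

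The members and all lists were chosen with earlier results of these data known, so counts over them support nothing by themselves. Named genes were all members, listed genes past the size rule after TSLP, a few fixed pathway genes and the 10 genes most like the members. Genes with a 2-fold TSLP gap, Krt14, Mx1, Gbp2b and T and NK cell markers other than the granzymes were named after their values were seen. So were the neutrophil markers. Protein sequences were not used here. Alternatives were other offsets, a floor, other filters, quantile normalization, the mean of probe sets, PBS distal as control, each TGF-beta mouse left out, and no trend in limma.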

Additional observations from a re-analysis of the deposited data

Results flagged for a closer look

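A probe set that names both Tgtp2 and Tgtp1, and so no single gene, lay outside the comparisons and showed the pattern of the IRG members. Tgtp1 and Tgtp2 are near-identical IRG effectors of mice that act with Iigp1. The signal was 2386 units after TSLP, 957 after IL-13, 774 and 647 in the TGF-beta mice, 815 in PBS distal and 678 in PBS local skin. TSLP skin was 1.77 above PBS local skin on the log2 scale, while the other arrays lay between -0.06 and 0.48. With 1 TSLP array and 1 PBS local array the difference was not tested.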

How the results depend on the processing

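With 2 TGF-beta arrays and 1 array elsewhere, the precision of each value is set by so few mice. Over the alternatives, 73 member counts stayed within 1.5 times the reported one and 1 moved. That was IL-13 set against PBS distal in place of PBS local, where 1 member, Gbp3, was at least 2-fold higher (1.16). For single members, 333 values moved by less than the replicate spread, 51 moved by more, and 0 values past the size rule changed sign. Many of the 333 could not have moved past that spread. The filter settings leave a gene's value unchanged, as does the mean of probe sets for a gene with 1 probe set. Leaving out 1 TGF-beta mouse moves a mean by less than the SD between the mice. The 333 therefore says little about robustness. The TSLP difference from PBS local skin ranged from 1.59 to 2.07 for Gbp2, 1.24 to 1.99 for Gbp3, 1.52 to 2.71 for Gbp8, 1.54 to 1.87 for Iigp1, 1.63 to 1.98 for Igtp, 0.61 to 0.80 for Irgm1 and 1.33 to 1.58 for Irgm2. The count past the size rule was 5 to 6 there (5 when both arrays had to reach the limit for dim genes, which drops Gbp8), 4 to 5 against IL-13, and 4 to 6 against TGF-beta. Without TGF-beta replicate 1 it was 6, as Gbp3 joined, and without replicate 2 it was 5. Over all genes, those at least 2-fold higher numbered 42 to 96 for TSLP against PBS local (385 with PBS distal as control), 44 to 131 for IL-13 (352 with PBS distal as control), 5 to 29 for TGF-beta (200 with PBS distal as control, 143 without replicate 1, 27 without replicate 2), 24 to 101 for PBS distal (137 to 339 lower), 25 to 88 for TSLP against IL-13, 19 to 48 for TSLP against TGF-beta (157 and 68 without replicate 1 and 2) and 16 to 36 for IL-13 against TGF-beta (77 and 71). limma called 0 members under every alternative run, and 0 genes except 4 for IL-13 against TGF-beta after quantile normalization (smallest adjusted p 0.0452). The causes were not tested. No paired analysis was possible because the groups compared share fewer than 2 replicate numbers.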
